A study of Mus musculus with 3 samples.

Results

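Smooth muscle and contractile genes are described here as a set of 10 symbols, *Des*, *Acta2*, *Actg2*, *Tagln*, *Myl9*, *Cnn1*, *Myh11*, *Tpm1*, *Tpm2* and *Cald1*, all of which were found among the 23421 gene symbols of the expression table. They were taken by name, as genes of the contractile cytoskeleton of smooth muscle and decidual cells. The set and the gene lists used beside it were chosen with earlier results of these data known, so their counts are descriptions. RNA-seq was performed on 3 libraries, 1 each for WT, tw18/+ and tw18/tw18 mouse embryos at E6.5, all of strain 129/SvEv and all from matings between tw18/+ mice. The tw18 haplotype carries a large deletion on Chr 17 that includes *Ppp2r1a*, the scaffold subunit Aα of the phosphatase PP2A, so tw18/+ embryos carry 1 copy of the deleted interval and tw18/tw18 embryos none. The labels call the tissue epiblast, whereas the study's text describes the embryo proper with its visceral endoderm, and the number of embryos per library is not given in the sources used here. With 1 library per genotype no difference has a replicate check, and no test was made.

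In smooth muscle, actin filaments built from the *Acta2* and *Actg2* products slide against myosin II made of the *Myh11* heavy chain and light chains such as the *Myl9* product. Tropomyosin, caldesmon and calponin lie along the actin filament and control its contact with myosin, transgelin bundles actin, and desmin forms intermediate filaments that anchor the contractile apparatus. Several of these genes are also used outside muscle, in stromal, decidual and epithelial cells. Many of them are known targets of SRF, a transcription factor that binds the CArG box and works with the cofactors myocardin and MRTF.

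In the tw18/tw18 library 4 of the 10 genes were higher than in WT by at least 2-fold, namely *Acta2*, *Des*, *Tagln* and *Myl9*. Over all genes with an FPKM of 1 or more in WT or tw18/tw18, 15.1% were higher and 6.94% lower at this threshold. *Cnn1* was lower, and *Actg2* was listed at 0. *Cald1*, *Tpm1* and *Tpm2* were higher by less than 2-fold, and *Myh11* was higher but under an FPKM of 1 in each library. In FPKM the fragments of a gene are divided by its length and by the size of the library, so levels of different genes can be set side by side. In bulk RNA, more cells of a type and more RNA per cell cannot be told apart.

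*Ppp2r1a* was listed with an FPKM of 146 in WT, 81.7 in tw18/+ and 12.8 in tw18/tw18, the order of the labelled genotypes. The tw18/tw18 value was not 0 although these embryos lack the gene, and the source of these fragments was not tested. Epiblast markers were present in all libraries, with *Pou5f1* between 274 and 721, and none of 8 was listed at 0 in WT. Depth estimated from the spacing of low FPKM values was 1.41 times that of WT in tw18/+ and 1.39 times in tw18/tw18. Of these low values 76.7% to 78.7% were whole fragments to within 0.2. The spacing was chosen as the best fit to these same values, so this share is no independent check of it. Fragment numbers given below are approximate, and intervals made from them (95%, exact binomial) cover counting error only. *Myh11* and *Lmod1* (leiomodin, an actin nucleator of smooth muscle) stayed under an FPKM of 0.5, while *Des* and *Tpm1* together made up 76.1%, 80.8% and 82.2% of the summed FPKM of the 10 genes in WT, tw18/+ and tw18/tw18.

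**Figure D1:**
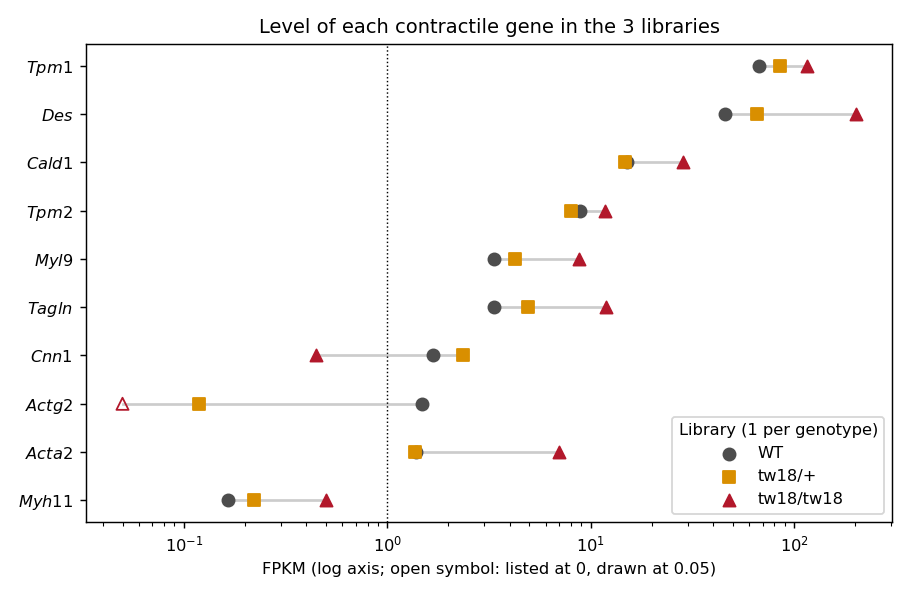
FPKM of each of the 10 genes (x axis, log scale) in the WT, tw18/+ and tw18/tw18 library, 1 symbol per library, ordered by the WT level, with a dotted line at an FPKM of 1. The tw18/tw18 symbol is the leftmost for *Cnn1* and *Actg2*, the latter listed at 0, and the rightmost for the others. Of those, *Cald1*, *Tpm1* and *Tpm2* differ from WT by less than 2-fold, and *Myh11* lies left of the dotted line in each library. The share of all genes that were highest in tw18/tw18 was not calculated.

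Promoter sequences are shown for 4 genes that differ in their response, 3 that were higher in tw18/tw18 (*Myl9*, *Des*, *Acta2*) and 1 that was lower (*Cnn1*). The CArG box, a stretch of 10 bases with CC at the 5′ end, 6 bases that are A or T, and GG at the 3′ end, was searched in the 250 bases before the RefSeq start of each gene (GRCm38.p6). The motif reads as the same class on both strands. Near matches, with 1 of the 6 middle bases being G or C, were searched as well. Sequences are 5′ to 3′ on the strand of the gene, with matches in capitals. They stop at the RefSeq start or before the first exon annotated in GENCODE, whichever comes first, except the short *Acta2* stretches.
*Myl9*, chr2:156775214-156775419, plus strand: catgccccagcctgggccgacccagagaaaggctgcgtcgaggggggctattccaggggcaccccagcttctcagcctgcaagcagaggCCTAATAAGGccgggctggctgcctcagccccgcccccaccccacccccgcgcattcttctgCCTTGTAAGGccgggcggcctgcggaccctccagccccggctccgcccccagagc
*Des*, chr1:75360042-75360291, plus strand: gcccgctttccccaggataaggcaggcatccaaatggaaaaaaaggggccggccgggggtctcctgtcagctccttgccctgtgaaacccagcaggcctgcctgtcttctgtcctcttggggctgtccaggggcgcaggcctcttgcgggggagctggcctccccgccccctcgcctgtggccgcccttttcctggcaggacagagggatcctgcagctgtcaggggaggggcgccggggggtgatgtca
*Cnn1*, chr9:22099003-22099215, plus strand: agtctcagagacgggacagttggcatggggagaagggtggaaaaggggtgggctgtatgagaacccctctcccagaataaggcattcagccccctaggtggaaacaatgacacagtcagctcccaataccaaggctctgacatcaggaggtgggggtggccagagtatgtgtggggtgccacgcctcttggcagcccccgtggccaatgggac
*Acta2*, chr19:34255438-34255467, minus strand: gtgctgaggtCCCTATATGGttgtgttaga
*Acta2*, chr19:34255388-34255417, minus strand: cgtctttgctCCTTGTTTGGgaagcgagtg

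*Myl9* held a CArG box 161 bases before its start and a near match 99 bases before it. *Acta2* held near matches 84 and 34 bases before its RefSeq start, and only these are shown because the longer GENCODE transcript starts further upstream and its first exon covers both. The windows of *Des*, *Cnn1*, *Tpm1*, *Tpm2* and *Cald1* held neither kind of match, and *Actg2*, *Tagln* and *Myh11* had no entry in the promoter table. Over the 16441 genes of the expression table with a promoter sequence, 1.53% held a CArG box and 9.47% held a CArG box or a near match. A match describes the letters of this window and is not evidence of binding.

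*Des*, on Chr 1 from 75360329 to 75368579 (GRCm38), encodes desmin, the muscle intermediate filament protein. Its FPKM was 45.5 in WT, 65.9 in tw18/+ and 201 in tw18/tw18, from about 1951, 3974 and 11940 fragments. It was the most abundant of the 10 genes in tw18/tw18 and second to *Tpm1* in the other libraries. Among genes at an FPKM of 1 or more it stood at rank 1635 of 11859 in WT and at rank 247 of 12402 in tw18/tw18. The tw18/tw18 library was 4.41-fold higher than WT, a log2 ratio of 2.14 (counting interval 2.07 to 2.21), and 3.05-fold higher than tw18/+, a log2 ratio of 1.61. Between tw18/+ and WT the log2 ratio was 0.53, under the threshold of 1. *Gm15179* overlaps *Des* on the opposite strand, and the libraries keep strand information, but whether counting used it is not given in the sources used here.

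*Acta2*, on Chr 19 from 34241090 to 34255590, encodes smooth muscle alpha-actin. Its FPKM was 1.38 in WT, 1.37 in tw18/+ and 7.0 in tw18/tw18, from about 39, 54 and 272 fragments. The WT and tw18/+ libraries were alike and the tw18/tw18 library stood apart from both, by a log2 ratio of 2.34 against WT (counting interval 1.84 to 2.85) and of 2.35 against tw18/+. This was the highest ratio of the set, at a level far below that of *Des*. Against WT, however, the counting interval of *Acta2* contained that of *Des* (2.07 to 2.21). With a pseudocount of 1 the ratio against WT was 1.75 for *Acta2* and 2.12 for *Des*. *Actg2*, on Chr 6 from 83512905 to 83536265, encodes smooth muscle gamma-actin. Its FPKM was 1.49 in WT (about 26 fragments) and 0.118 in tw18/+ (about 3). It was listed at 0 in tw18/tw18, where 3 fragments would give an FPKM of 0.123. The 2 smooth muscle actins therefore went in opposite directions from WT to tw18/tw18. Only 0.326% of the 50-base words of the *Acta2* transcripts, and none of those of *Actg2*, occurred in transcripts of another gene. These words count exact matches only, and how the aligner placed reads that fit several actin genes was not examined. An exact 0 in a table of this kind can also be a failed estimate: *Lars2*, a mitochondrial tRNA synthetase gene that every cell uses, was listed at 11199 in WT, 9689 in tw18/+ and 0 in tw18/tw18. Since *Lars2* was listed far above *Actg2* in WT and tw18/+, the example does not tell the source of the 0 of *Actg2*, which was not tested.

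*Myh11*, on Chr 16 from 14194535 to 14291372, encodes the smooth muscle myosin heavy chain. Its FPKM was 0.165 in WT, 0.220 in tw18/+ and 0.498 in tw18/tw18, from about 15, 29 and 65 fragments. It was the lowest of the set in WT, and its log2 ratio of 1.60 against WT had a counting interval of 0.82 to 2.56. *Myl9*, on Chr 2 from 156775420 to 156781658, encodes the regulatory light chain of smooth muscle myosin. Its FPKM was 3.34 in WT, 4.26 in tw18/+ and 8.76 in tw18/tw18, from about 49, 87 and 177 fragments. The log2 ratio of *Myl9* was 1.39 against WT (counting interval 0.92 to 1.87) and 1.04 against tw18/+ (0.67 to 1.43), so that counting error alone reached below the threshold in both comparisons. Both myosin genes had their lowest value in WT and their highest in tw18/tw18.

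*Tpm1* and *Tpm2* encode tropomyosins, which run along the actin filament, and lie on Chr 9 from 67022590 to 67049406 and on Chr 4 from 43514711 to 43523765. The FPKM of *Tpm1* was 67.3 in WT, 85.1 in tw18/+ and 116 in tw18/tw18, a log2 ratio of 0.79 between tw18/tw18 and WT (counting interval 0.71 to 0.87). *Tpm2* was at 8.87 in WT, 7.96 in tw18/+ and 11.7 in tw18/tw18, with a log2 ratio of 0.40 (0.18 to 0.62). Both were highest in tw18/tw18, by less than 2-fold. *Cald1*, on Chr 6 from 34598500 to 34775473, encodes caldesmon, which binds actin and calmodulin, and had an FPKM of 15.1 in WT, 14.8 in tw18/+ and 28.4 in tw18/tw18. Its log2 ratio of 0.91 (0.80 to 1.02) was just under the threshold of 1, and passed it with libraries rescaled to equal FPKM sums (1.12). *Tpm1* has 21 annotated transcripts and *Cald1* has 18, among them muscle and nonmuscle forms, and values per gene do not tell these apart.

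*Tagln*, on Chr 9 from 45929619 to 45936058, encodes transgelin (SM22α), an actin bundling protein. Its FPKM was 3.33 in WT, 4.90 in tw18/+ and 11.9 in tw18/tw18, or about 72, 149 and 355 fragments. Its log2 ratio was 1.84 against WT (counting interval 1.46 to 2.22) and 1.28 against tw18/+. *Pcsk7* and *Gm48529* overlap it on the opposite strand. *Tagln* and *Myl9* were level in WT, at 3.33 and 3.34, and *Tagln* was the higher of them in the other libraries. *Cnn1*, on Chr 9 from 22099216 to 22109630, encodes calponin 1, which inhibits the myosin ATPase in smooth muscle. Its FPKM was 1.68 in WT, 2.35 in tw18/+ and 0.446 in tw18/tw18, from about 56, 110 and 21 fragments. The tw18/tw18 library was 3.76-fold lower than WT, a log2 ratio of -1.91 (counting interval -2.68 to -1.14), and 5.26-fold lower than tw18/+, a log2 ratio of -2.40. On the log2(FPKM + 1) scale, which understates the change of low genes, the difference of *Cnn1* from WT was -0.89. *Cnn1* and *Tagln*, both actin-binding proteins of smooth muscle, thus moved apart: the FPKM of *Cnn1* was 50.3% of that of *Tagln* in WT, 47.9% in tw18/+ and 3.75% in tw18/tw18.

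**Figure D2:**
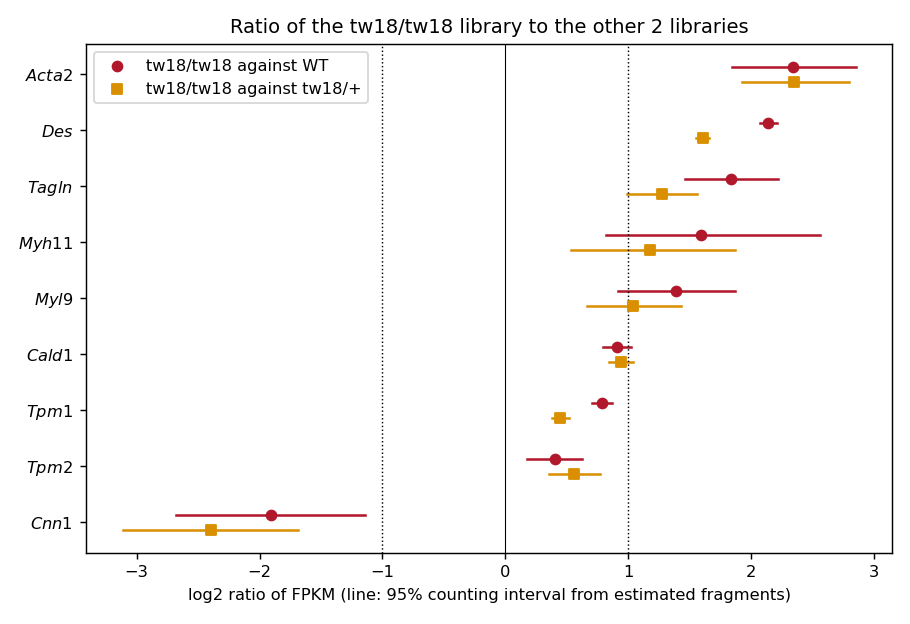
Log2 ratio of FPKM of tw18/tw18 against WT (circles) and against tw18/+ (squares) for the 9 genes with a value above 0 in each library, with 95% counting intervals from estimated fragments and dotted lines at -1 and 1. *Acta2* lies furthest to the right at 2.34 and 2.35, and *Cnn1* stands alone on the left at -1.91 and -2.40.

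Against WT, 9 of the 10 genes entered, and 4 of these (44.4%) were called higher in tw18/tw18 at a log2 ratio of at least 1. Over all genes that entered, 15.1% were. Of the 9, 2 were called lower, where over all genes 6.94% were. The set was chosen with earlier results of these data known, so its share and its median are descriptions beside those of all genes. A gene entered when the higher of its 2 values was at least 1. *Myh11* did not enter, and *Actg2* and *Cnn1* entered only through WT. The median log2 ratio of the 9 genes that entered was 0.91, beside -0.0081 over all 12917 genes. Against tw18/+, the same 4 genes were called higher, with 14.9% of all genes called higher, and *Cnn1* was called lower, with 5.65% of all genes called lower. *Myh11* and *Actg2* did not enter there, and *Cnn1* entered only through tw18/+, so it could not have been called higher. These comparisons share the tw18/tw18 library and are not independent. With libraries rescaled to equal FPKM sums, which adds 0.21 to each log2 ratio against WT, the share of higher genes among all genes called went from 68.5% to 79.8% against WT and from 72.5% to 84.3% against tw18/+. *Cald1* then joined the higher genes in both comparisons.

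Between tw18/+ and WT the set differed little. None of the 10 genes was called higher, where 4.7% of all genes were, and *Actg2* alone was called lower, where 5.02% of all genes were. The log2 ratio of *Actg2* was -3.65 (counting interval -5.98 to -1.90). It entered only through WT, so it could not have been called higher. *Tagln*, *Des*, *Cnn1*, *Myh11*, *Myl9* and *Tpm1* had ratios between 0.34 and 0.56, and *Acta2*, *Cald1* and *Tpm2* between -0.16 and -0.0089. The counting intervals of *Acta2*, *Myl9*, *Myh11*, *Tpm2* and *Cald1* included 0, and those of *Des*, *Tagln*, *Tpm1* and *Cnn1* lay above 0. *Des*, *Tagln*, *Myl9* and *Tpm1* were lowest in WT, intermediate in tw18/+ and highest in tw18/tw18, an order held by 21.1% of the 13118 genes that reached an FPKM of 1 in any library. *Myh11* had the same order under that level.

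For 9 of the 10 genes, all but *Cald1*, the level was also set against that of a relative used in many cell types, and the ratio of the 2 within a library does not depend on how libraries are scaled. *Acta2* stood at 0.0893% of the FPKM of the cytoplasmic actin *Actb* in WT, at 0.0892% in tw18/+ and at 0.398% in tw18/tw18, a 4.45-fold higher ratio than in WT. *Actb* itself was listed at 1544, 1536 and 1758. *Des* was at 157% of *Vim*, which encodes the mesenchymal intermediate filament protein vimentin, in WT, at 289% in tw18/+ and at 364% in tw18/tw18. *Vim* was also higher in tw18/tw18, by a log2 ratio of 0.93, so the ratio of *Des* to *Vim* changed less than *Des* did.

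The ratio of *Tagln* to *Tagln2* was 1.85-fold higher in tw18/tw18 than in WT, that of *Myl9* to the light chain gene *Myl12a* 2.35-fold, that of *Myh11* to the nonmuscle heavy chain gene *Myh9* 2.23-fold, and that of *Tpm1* to *Tpm3* 1.71-fold. *Tpm2* against *Tpm4* changed by 1.13-fold. *Cnn1* was at 11.2% of *Cnn2* in WT, 14.5% in tw18/+ and 1.41% in tw18/tw18. *Cnn2* itself was higher in tw18/tw18 than in WT, by a log2 ratio of 1.09, as was *Cnn3* by 0.80. *Actg2* was at 0.0855% of the cytoplasmic actin *Actg1* in WT and at 0.00668% in tw18/+. *Acta2*, *Des*, *Tagln*, *Myl9*, *Myh11*, *Tpm1* and, least of them, *Tpm2* were therefore higher in tw18/tw18 than in WT also relative to a widely expressed gene of the same family, and *Cnn1* and *Actg2* were lower.

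**Figure D3:**
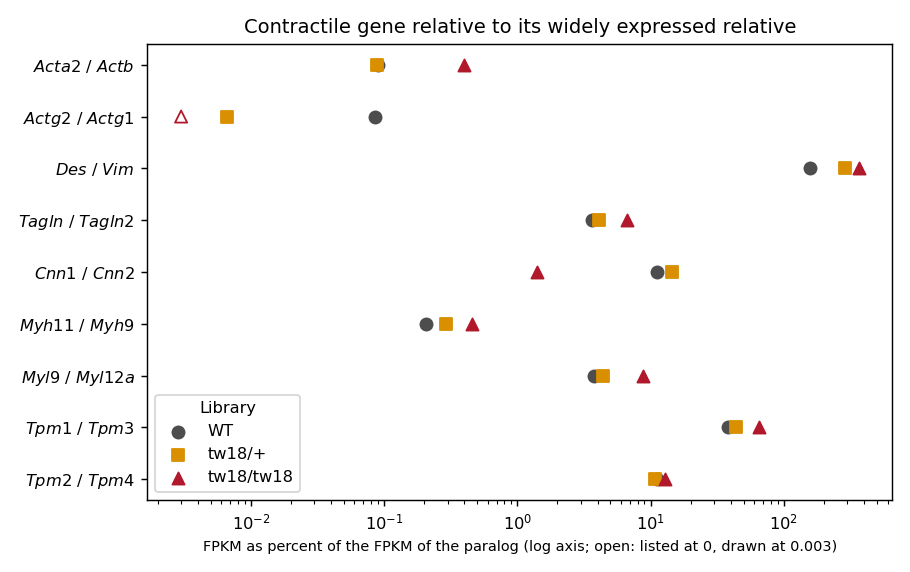
FPKM of each contractile gene as a percent of the FPKM of a widely expressed relative (x axis, log scale), 1 symbol per library. Within its line the tw18/tw18 symbol is the rightmost for *Acta2* per *Actb* (0.398%) and the leftmost for *Cnn1* per *Cnn2* (1.41%), and *Actg2* per *Actg1* is listed at 0.

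Among 9 lists of related genes with 81 symbols in the table, 64 entered against WT, of which 19 were called higher (29.7%) and 1 lower in tw18/tw18, with a median log2 ratio of 0.52, where over all genes 15.1% were higher and 6.94% lower. Of the 19, 5 entered only through tw18/tw18 (*Synm*, *Pcp4l1*, *Mylk*, *Tnni1* and *Tnni3*) and so had to be higher there. These lists were also chosen with earlier results of these data known. Against tw18/+, 17 of 64 were higher, 6 of them entering only through tw18/tw18, and 1 was lower, beside 14.9% and 5.65% of all genes. Between tw18/+ and WT 4 of 60 were higher and 3 lower, near the 4.7% and 5.02% of all genes. The single lists are small, and their counts against WT are to be read beside the same 15.1% and 6.94%. The 18 smooth muscle partner genes had 9 called higher, 6 in between and 3 under an FPKM of 1, with a median log2 ratio of 1.18. *Synm*, encoding the intermediate filament protein synemin that copolymerizes with desmin, had an FPKM of 0.388 in WT, 0.641 in tw18/+ and 2.78 in tw18/tw18, a log2 ratio of 2.84. *Ppp1r14a*, encoding the myosin phosphatase inhibitor CPI-17, had 1.91, 5.37 and 5.89, and was thus already high in tw18/+. *Pcp4l1* was listed at 0 in WT and at 2.78 in tw18/tw18. Among genes of this list at an FPKM of 1 or more in either library, *Smtnl2* had the lowest ratio, at -0.91.

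Of the 5 tropomyosin, calponin and transgelin paralogs that entered, *Cnn2* was called higher, *Tagln2* was next at 0.95, and *Tpm4* at 0.22 and *Tpm3* at 0.0098 were lowest. *Tagln3* was under an FPKM of 1 in each library.

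The regulators of contraction and transcription differed among themselves. *Mylk*, the myosin light chain kinase gene, had an FPKM of 0.686 in WT, 0.837 in tw18/+ and 3.07 in tw18/tw18, a log2 ratio of 2.16, and *Rhob*, a small GTPase gene, had a log2 ratio of 1.36. The other 8 of the 10 genes of this list were not called, with *Ppp1cb*, a phosphatase catalytic subunit gene, lowest at -0.44. *Srf* was listed at 13.5, 15.4 and 13.5 in WT, tw18/+ and tw18/tw18, a log2 ratio of -0.0033. Among its cofactors *Myocd*, encoding myocardin, was at 1.65 in WT, 1.02 in tw18/+ and 4.28 in tw18/tw18. With a log2 ratio of 1.38 it was the 1 gene called higher of 5 in this list. *Mkl2* (MRTF-B) was next at 0.79.

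Of 10 actin crosslinkers and anchors, *Flnc* (filamin C) at 1.28 and *Lpp* at 1.22 were called higher, and the other 8 had ratios above 0, down to 0.051 for *Vasp*. None of 5 nonmuscle myosin II chain genes that entered was called, from *Myh10* at -0.24 over *Myl12b* at -0.081, *Myl12a* at 0.16 and *Myl6* at 0.31 to *Myh9* at 0.44, and *Myh14* did not enter. Of the other actins *Actb* was at 0.19, *Actg1* at -0.16 and *Acta1*, the skeletal actin gene, at -1.20, while *Actc1*, the cardiac actin gene, was under an FPKM of 1 in each library. Of 6 intermediate filament genes 2 were called higher, *Lmna* at 2.16 and *Krt19* at 1.41, and *Nes* had the lowest ratio at 0.14.

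Striated muscle genes were mostly listed at a low level. Of 16 genes, 8 were listed at 0 in WT, 5 in tw18/+ and 6 in tw18/tw18, and 5 entered against WT, of which *Tnni1* and *Tnni3*, both listed at 0 in WT, were called higher with an FPKM of 1.21 and 1.58 in tw18/tw18. *Tnnc1*, encoding the troponin C of slow and cardiac muscle, was the exception in level, with an FPKM of 84.2 in WT, 17.2 in tw18/+ and 82.5 in tw18/tw18, and a log2 ratio of -0.029. *Myl7*, an atrial light chain gene, was at 0.37 and *Tnnt3* at -0.11.

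**Figure D4:**
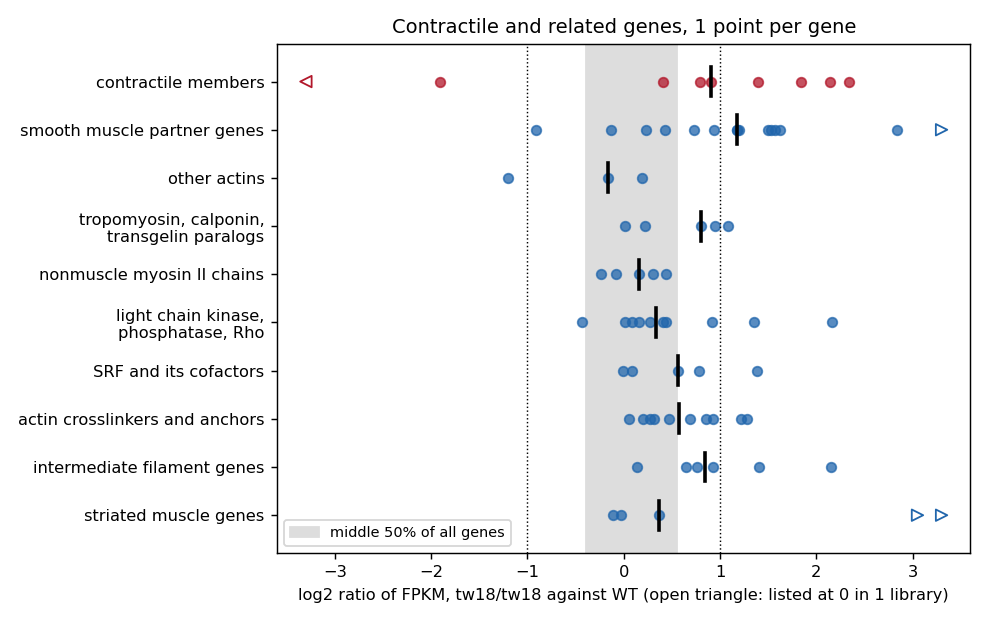
Log2 ratio of FPKM of tw18/tw18 against WT, 1 point per gene that reached an FPKM of 1 in WT or tw18/tw18, for the contractile genes and 9 lists of related genes. Black bars are medians, open triangles are genes listed at 0 in 1 library, and the grey band is the middle 50% of all genes, from -0.39 to 0.55. The median of the contractile genes is at 0.91 and that of the smooth muscle partner genes at 1.18, to the right of the band.

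Markers of other tissues also differed between the libraries, and their counts stand beside 15.1% of all genes called higher and 6.94% called lower against WT, and 14.9% and 5.65% against tw18/+. The summed FPKM of the 10 contractile genes was 148 in WT, 187 in tw18/+ and 386 in tw18/tw18. That of 8 stroma markers was 69.7, 65.4 and 304, with 6 called higher in tw18/tw18 against WT and none listed at 0 in WT. Of the 6, *Lum* entered only through tw18/tw18 and so had to be higher there. For 8 pericyte markers the sum was 19.0, 20.7 and 47.9, with 3 of the 5 that entered called higher. Pericytes wrap small vessels and share contractile genes with smooth muscle. *Pdgfrb*, a defining pericyte receptor gene, was at 1.22, 1.06 and 2.05, and *Rgs5* at 1.80, 2.49 and 12.7. For 8 endothelial markers the sum was 55.7, 44.7 and 108, with 5 called higher, among them *Tek* and *Tie1*, which entered only through tw18/tw18. For 7 erythroid markers the sum was 52.5, 56.3 and 177. The erythroid sum came mostly from *Hba-a1* in WT, at 52.2 against 0.0070 in tw18/tw18. In tw18/tw18 it came mostly from *Hba-a2*, at 0.020 in WT, 26.9 in tw18/+ and 127 in tw18/tw18, and *Hbb-bs*, at 0.018, 0.555 and 47.6. Reads of globin genes can be assigned to more than 1 copy.

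Decidua markers split against WT. *Hoxa10* and *Hoxa11*, homeobox genes of the uterine stroma, were at 32.9 and 30.8 in tw18/tw18 against 7.64 and 3.67 in WT, in the same direction as *Des*. *Prl8a2*, a prolactin gene of decidual cells, was at 1504 in WT, 155 in tw18/+ and 377 in tw18/tw18, and made most of the list's sum of 1749, 254 and 674. Of the 8 decidua markers, 4 were called higher and 2 lower against WT. Against tw18/+, 6 were called higher and none lower, all 8 had a ratio above 0, and the median log2 ratio was 1.61. Epiblast markers went the other way, with a sum of 1712, 1831 and 887 and 4 of 8 called lower. Extra-embryonic ectoderm markers had a sum of 102, 79.7 and 88.0, carried by *Eomes* at 77.1, 58.0 and 37.0. Of the 7 that entered against WT, however, 5 were called higher (*Elf5*, *Cdx2*, *Esrrb*, *Tfap2c* and *Bmp4*) and *Eomes* lower, with a median log2 ratio of 1.33. *Cdx2* entered only through tw18/tw18 and so had to be higher there. The sum was 842, 817 and 1078 for visceral endoderm, with no marker called against WT, 125, 75.7 and 237 for trophoblast giant cells, and 20.1, 11.9 and 32.6 for immune cells. In WT, 3 of 7 erythroid, 3 of 8 immune and 2 of 5 giant cell markers were listed at 0, and none of the other lists' markers was. The part of these tissues in the values of the contractile genes was not tested.

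**Figure D5:**
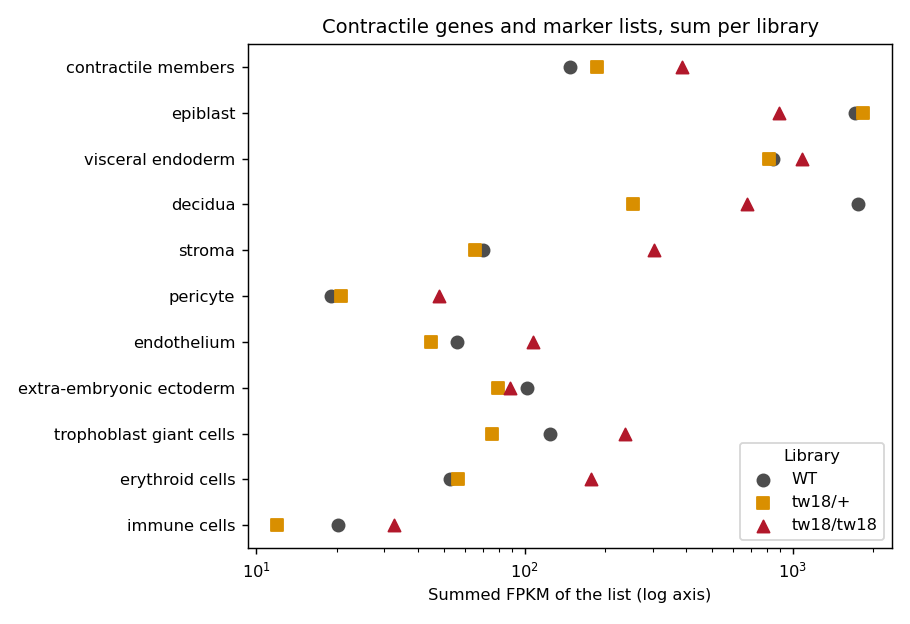
Summed FPKM (x axis, log scale) of the 10 contractile genes and of 10 lists of cell type markers in each library, 1 symbol per library. The contractile genes (386) are highest in tw18/tw18. So are the stroma (304), pericyte, endothelium, erythroid, visceral endoderm, trophoblast giant cell and immune cell lists. The epiblast list is lowest there (887), and the decidua (1749) and extra-embryonic ectoderm lists are highest in WT.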

How the data were processed

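RNA from 3 samples, 1 per genotype, was made into strand-specific libraries (TotalScript) and read from both ends at 50 bp. The authors mapped them to mm10 (GRCm38) with TopHat and calculated the deposited FPKM values with Cuffdiff (Cufflinks 2.2.1 per the submitters' processing notes). The gene annotation and library normalization are not given in the sources used here. FPKM values are relative to the whole library, so an abundant gene affects all others.

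Software was pandas 2.3.3, numpy 2.4.6, scipy 1.17.1 and matplotlib 3.10.9 under Python 3.11.15. Ratios are log2 without a pseudocount, called at 1 or more in either direction when the higher FPKM of the pair was at least 1. Genes listed at 0 in 1 library were counted, without a ratio, if the other library had 1 or more. Fragments were estimated from low FPKM values of genes with 1 annotated transcript, with 150 bp allowed for fragment length. Positions and transcripts came from GENCODE M21. Protein identity was not computed.

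All 10 genes are named. Of each related list, the 2 highest and the lowest finite log2 ratios against WT among genes at an FPKM of 1 or more in either library, and relatives of a contractile gene are named, and other genes are examples chosen after their values were seen. Members and lists were chosen with earlier results of these data known. Alternatives were pseudocounts of 0.1 and 1, a minimum FPKM of 5 or none, a log2 threshold of 2, centring on the median ratio and rescaling to equal FPKM sums.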

Additional observations from a re-analysis of the deposited data

How the results depend on the processing

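No paired analysis was possible because each genotype has 1 library. For the contractile genes 28 log2 ratios were recomputed under the alternatives other than the minimum FPKM, giving 140 values. Of these 125 kept their side of the threshold, 13 fell under it and 2 passed it (*Cald1*, 1.12 against WT and 1.19 against tw18/+ with equal FPKM sums). Of the 13, 8 fell only because the threshold was raised to 2, which leaves the ratio itself unchanged. The sign changed for 0 values, but only centring and rescaling could have changed it. With a pseudocount of 1, *Cnn1* was at -0.89 against WT, so 1 contractile gene was lower instead of 2, and *Myl9* was at 0.89 against tw18/+. A threshold of 2 left 2 higher and 1 lower against WT, and 1 higher and 1 lower (*Cnn1*) against tw18/+. A minimum FPKM of 5 left 4 higher and 0 lower against WT, and 0 lower in both other comparisons, since *Cnn1* and *Actg2* lie under it. Without a minimum, 2 were lower against tw18/+.

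Of the related genes against WT, 19 were higher, 12 with a minimum FPKM of 5 and 6 with a threshold of 2, and 1 was lower, 7 without a minimum and 0 with a pseudocount of 1, a minimum of 5, equal sums or a threshold of 2. Against tw18/+, 17 were higher, 10 with a minimum of 5 and 8 with a threshold of 2, and 1 was lower, 8 without a minimum and 0 with a threshold of 2. Between tw18/+ and WT, 4 were higher, 11 without a minimum and 1 with a threshold of 2, and 3 were lower, 5 without a minimum and 1 with a minimum of 5. Over all genes, the alternatives gave 744 to 4072 higher (1946 as reported) and 295 to 1825 lower (896) against WT, 610 to 3689 (1910) and 195 to 2081 (726) against tw18/+, and 98 to 2636 (584) and 143 to 1656 (624) between tw18/+ and WT. Depth limits *Actg2*, *Myh11* and *Cnn1*, with about 65 fragments or fewer in tw18/tw18.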

Other observations

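Some muscle genes had their lowest value in tw18/+ and not in tw18/tw18, an observation made after the values were seen. *Acta1* was at an FPKM of 3.57 in WT, 0.910 in tw18/+ and 1.55 in tw18/tw18, *Tnnt3* at 1.44, 0.208 and 1.34, and *Tnnc1* at 84.2, 17.2 and 82.5. *Prl8a2* was also lowest in tw18/+, as was *Prl3c1* at 121, 13.2 and 25.2. Among the contractile genes *Acta2*, *Tpm2* and *Cald1* were lowest in tw18/+, each by a log2 ratio against WT of no more than 0.16 in size. *Myl7* went the other way and was highest in tw18/+, at 2.95, 11.5 and 3.80. Of the 4 striated muscle genes that entered between tw18/+ and WT, 2 were called higher and 2 lower, beside 4.7% and 5.02% of all genes.

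*Kcnmb1*, which encodes a subunit of the calcium-activated potassium channel of smooth muscle, was at an FPKM of 0.501 in WT, 0.0495 in tw18/+ and 0.0374 in tw18/tw18, the same order as *Actg2*. *Mustn1* was at 0.676, 0.748 and 0.0885, the same order as *Cnn1*. Both lay under an FPKM of 1 in each library, and no difference was tested.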
